A study of Schizosaccharomyces pombe with 6 samples.

Results

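The 10 genes described here serve iron or heme uptake, ferrichrome synthesis or iron-responsive repression in fission yeast. They were chosen by name, as the genes of the siderophore-iron transporter family (*str1*, *str2*, *str3*), reductive iron uptake (*frp1*, *fio1*, *fip1*), ferrichrome synthesis (*sib1*, *sib2*) and iron-responsive repression (*fep1*, *php4*). The deposited description names *str3* as a heme transporter. All 10 were among the 6291 genes counted. Their mRNA levels were compared between 3 cultures of *nup211-so* grown without thiamine and 3 cultures of the same strain grown with thiamine. In *nup211-so* the thiamine-repressible promoter P81nmt drives *nup211*, which encodes a nuclear pore basket protein. The strain carries *nup211*::P81nmt1 with the *ura4*+ marker in a *leu1-32*, *ura4-D18*, *ade6-M210*, h+ background, and both groups share this genotype. Control cultures grew in Edinburgh minimal medium with adenine and leucine, and their growth time and starting density are not given in the sources used here. The other cultures grew for 24 hours in the same medium with 30 µM (10 µg/mL) thiamine, were washed, and grew for another 24 hours in fresh thiamine medium from an OD600 of 0.05. All 6 libraries come from 1 engineered strain, and no wild-type culture with thiamine was analysed here. Effects of thiamine itself and of *nup211* repression therefore cannot be told apart. Nor can any difference in growth time or density between the groups be told apart from them.

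Among the routes by which fission yeast takes up iron are a reductive route and a siderophore route. In the reductive route a cell-surface reductase frees ferric iron as ferrous iron, which an oxidase and permease complex carries across the plasma membrane. In the siderophore route the cell makes ferrichrome, a peptide that binds ferric iron, and membrane transporters import iron bound to such molecules. When iron is plentiful, the GATA-type repressor Fep1 keeps uptake genes low. When iron is scarce, Php4 joins the CCAAT-binding complex and represses genes whose products use iron, and Fep1 in turn represses *php4* when iron is plentiful.

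Library totals ranged from 37195197 to 48815139 counts. Ribosomal RNA genes held 41.2% to 48.98% of the counts in the controls and 24.6% to 46.3% in the libraries labelled thiamine. The libraries without thiamine are called controls here. *nup211* itself had 477, 590 and 473 counts in the controls against 644, 551 and 655 in the libraries labelled thiamine. These groups overlapped after normalization, and *nup211* mRNA was not detectably lower (log2 fold change −0.17, SE 0.11, adjusted p = 0.199, edgeR). The thiamine-repressed gene *nmt1* had 1631, 2061 and 1858 counts in the controls but 0, 3 and 2 where thiamine was labelled. The labels thus matched the thiamine response of *nmt1*, while these mRNA counts do not show a lowering of *nup211*. Nup211 protein was not analysed here. The study reported by immunoblot that *nup211-so* cells grown with thiamine had less Nup211 protein than those grown without. In bulk RNA a change in the make-up of the culture and a change of mRNA per cell cannot be told apart. The sources state separate biological replicates, so the p-values measure the spread between cultures.

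All 10 iron genes passed the filter on low counts and were called by the quasi-likelihood test of edgeR (adjusted p under 0.05 by Benjamini-Hochberg). Transcripts of *str3*, *sib2*, *frp1*, *fip1*, *fio1* and *str1* were lower in the libraries labelled thiamine, and those of *fep1*, *php4*, *str2* and *sib1* were higher. Among all 5434 tested genes 69.8% were called, 34.5% as higher and 35.3% as lower, so a call by itself does not set these genes apart. The groups of 3 libraries did not overlap for any of the 10 genes, against 75.5% of all tested genes (37.3% higher and 38.2% lower without overlap). The rises of *str2* and *sib1* were not called once length and GC trends were taken out together, as given below with those genes. Of the 10 genes, 6 were called and fell by at least 2-fold, against 13.6% of all tested genes. These were all 6 of those called lower, against 738 of 1917 among all tested genes. Only *fep1* of the 10 was called and rose by at least 2-fold, against 16.4% of all tested genes. It was 1 of the 4 called higher, against 889 of 1877 among all tested genes. This split depended on the scaling. With library totals *fep1*, *php4* and *str2* rose and 4 genes fell by at least 2-fold, *str1* and *fio1* not among them. With upper-quartile factors, or with length and GC trends removed, where *fep1* was at 0.85 on the log2 scale, no gene rose and 6 fell by as much. The median log2 fold change of the 10 genes was −1.34, and over all tested genes it was −0.012. The 10 genes were chosen with earlier results of these data known, so these comparisons with all genes are descriptions and no test. Levels below are CPM, counts scaled to a library size of 1000000 after TMM normalization. Fold changes are those of the libraries labelled thiamine against those without.

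**Figure D1:**
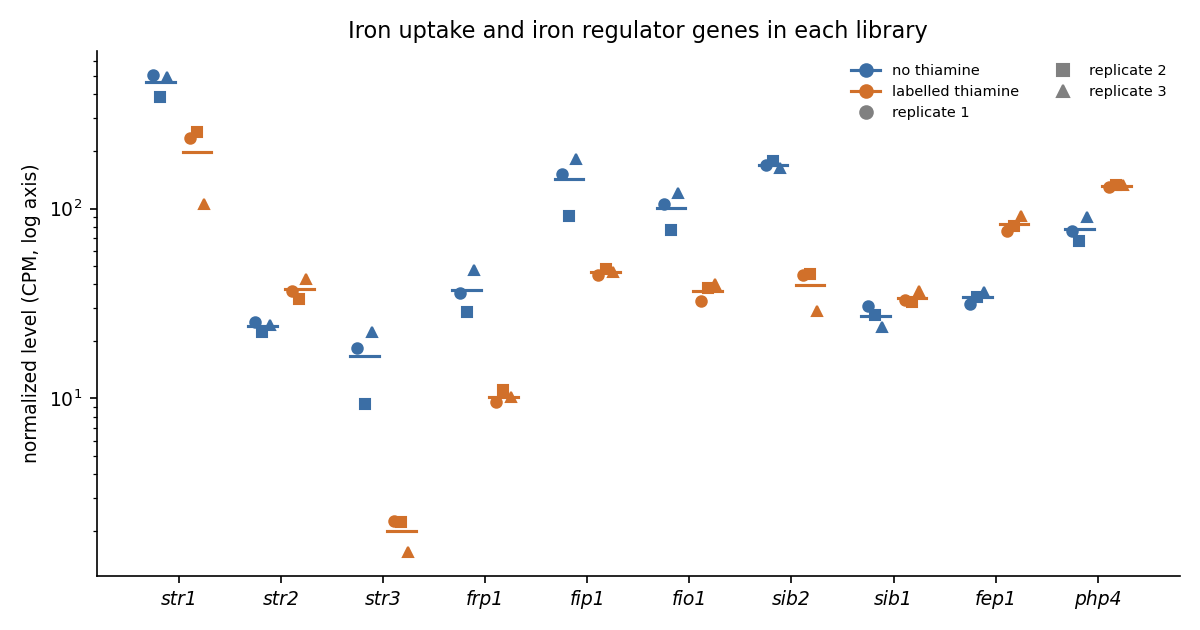
Normalized level (CPM, log axis) of the 10 iron genes in each of the 6 libraries. Points are libraries, shapes are replicate numbers (which do not pair the cultures) and short lines are group means. The groups are separate for all 10 genes, the rises of *str2* and *sib1* depend on the settings given in the text, and *str3* in replicate 2 without thiamine (9.31 CPM) lies below the other 2 control libraries (18.5 and 22.3 CPM).

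*str3* encodes a transporter of the siderophore-iron family that the deposited description names as a heme transporter. It lies on chromosome I at positions 88201 to 90289 (minus strand, 1 exon). This and the other positions are from the RefSeq annotation of ASM294v3. Its level was 18.5, 9.31 and 22.3 CPM in replicates 1 to 3 without thiamine and 2.26, 2.23 and 1.56 CPM in the libraries labelled thiamine. Replicate 2 was the lowest control, and it was still far above every library labelled thiamine. The mean fell from 16.7 ± 6.68 to 2.01 ± 0.396 CPM (SD, n = 3 each), or 8.29-fold (log2 fold change −3.05, SE 0.32, adjusted p = 4.55e-05, edgeR). Of all tested genes, 98.01% changed by less. The raw counts behind the lower group were 110, 107 and 84.

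*str1* encodes the plasma-membrane transporter of iron-loaded ferrichrome (chromosome II, 2704657 to 2707648, plus strand, 1 exon). It was the most abundant of the 10 transcripts, with 508, 386 and 491 CPM without thiamine. In the libraries labelled thiamine it had 234, 253 and 106 CPM. All 3 were below every control, and replicate 3 stood well below the other 2. The mean fell from 462 ± 66.1 to 198 ± 80.1 CPM (log2 fold change −1.22, SE 0.29, adjusted p = 0.00493, edgeR). Without replicate 3 of the libraries labelled thiamine the log2 fold change was −0.94 (adjusted p = 1.2e-05, edgeR). That library also had the lowest share of ribosomal RNA counts (24.6%), and the part of this in the result was not tested.

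*str2*, another transporter of the siderophore-iron family, moved the other way. Its level was 25.2, 22.4 and 24.4 CPM without thiamine and 36.8, 33.5 and 42.5 CPM in the libraries labelled thiamine. The groups did not overlap, and the log2 fold change was 0.65 (SE 0.11, adjusted p = 0.000572, edgeR). This rise could not be assigned to *str2* with certainty. The annotated gene spans 6804 bp of chromosome III (1435212 to 1442015, minus strand, 2 exons), of which the coding part lies at 1440089 to 1441994. The counted genes *apn1*, *rpl6* and *jmj4* on the opposite strand overlap 59.6% of the gene, and the strand setting of the counting is not given in the sources used here. The gene is also longer than 99.1% of tested genes, and after removing each library's length and GC trends the difference was −0.037 (adjusted p = 0.747, edgeR). Annotated genes that were not counted overlap other iron genes too. They cover 1208 of 1518 bp of *php4*, 1238 of 3501 bp of *fep1* and 1471 of 2992 bp of *str1*. For *sib1* they cover 7540 of 15232 bp, for *fio1* 615 of 2803 bp and for *str3* 264 of 2089 bp. They cover 17 of 1981 bp of *sib2* and none of *frp1* or *fip1*. Their part in the counts was not tested.

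All 3 chosen genes of reductive uptake fell, while *frp2*, annotated as another ferric reductase, rose (log2 fold change 2.25, given below with its list). *frp1* encodes the ferric-chelate reductase of the cell surface (chromosome II, 160357 to 162392, minus strand, 1 exon). Its level was 35.7, 28.5 and 47.8 CPM without thiamine and 9.53, 11.03 and 10.1 CPM in the libraries labelled thiamine. The lowest control was above the highest library of the other group, and the controls were more spread. The mean fell 3.65-fold from 37.3 ± 9.75 to 10.2 ± 0.755 CPM (log2 fold change −1.87, SE 0.18, adjusted p = 2.58e-05, edgeR).

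*fip1* encodes the iron permease and *fio1* the multicopper oxidase that works with it. They are transcribed away from each other on chromosome I, *fip1* at 4232998 to 4234768 on the minus strand and *fio1* at 4235072 to 4237874 on the plus strand, with 303 bp between their annotated starts. *fip1* stood at 153, 91.8 and 183 CPM without thiamine and at 44.7, 47.9 and 46.1 CPM in the libraries labelled thiamine. *fio1* stood at 106, 77.2 and 121 CPM without thiamine and at 32.8, 38.3 and 39.9 CPM in the libraries labelled thiamine. For both genes replicate 2 was the lowest and replicate 3 the highest of the controls, and the libraries labelled thiamine lay close together. The log2 fold change was −1.62 for *fip1* (SE 0.22, adjusted p = 0.000174, edgeR), a 3.08-fold fall, and −1.45 for *fio1* (SE 0.16, adjusted p = 5.86e-05, edgeR), a 2.74-fold fall.

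The genes share an upstream region with motifs of both kinds of iron regulator. It is shown here because *fip1* and *fio1* fell together on either side of it. The sequence is 300 of the 303 bases between the genes, ASM294v3 chrI:4234770-4235069, plus strand, with *fip1* to the left and *fio1* to the right. Capitals mark GATA elements, the motif that GATA-type factors bind (AGATAA or TGATAA on either strand), and CCAAT boxes (CCAAT on either strand, here read as ATTGG).
fip1-fio1 interval: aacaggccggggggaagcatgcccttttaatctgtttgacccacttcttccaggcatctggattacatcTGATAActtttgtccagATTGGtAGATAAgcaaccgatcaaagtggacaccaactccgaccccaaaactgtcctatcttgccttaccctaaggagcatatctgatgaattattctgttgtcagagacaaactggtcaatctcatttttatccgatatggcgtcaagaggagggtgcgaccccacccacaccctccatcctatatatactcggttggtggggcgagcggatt
The interval holds 2 GATA elements with a CCAAT box between them. Counted from the annotated starts they are 99 to 71 bases before *fip1* and 233 to 205 bases before *fio1*.

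*frp1* held 2 GATA elements in the 250 bases before its annotated start, 93 to 75 bases from it, and no CCAAT box (ASM294v3 chrII:162393-162642, printed 5′ to 3′ on the minus strand, the gene's own strand). It is printed for comparison with *str2*, whose 250 upstream bases (chrIII:1442016-1442265, minus strand) also held 2 GATA elements, 60 to 28 bases from the start. The counts of *str2* did not fall. Genes on the opposite strand overlap 59.6% of *str2*, so whether its own transcript fell is not known from these counts. Capitals mark the same motifs.
frp1 upstream: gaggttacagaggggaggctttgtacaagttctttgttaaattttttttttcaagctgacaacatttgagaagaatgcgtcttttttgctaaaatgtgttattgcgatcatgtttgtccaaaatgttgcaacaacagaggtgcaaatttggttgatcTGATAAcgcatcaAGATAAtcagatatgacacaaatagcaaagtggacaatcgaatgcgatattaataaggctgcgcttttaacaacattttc
str2 upstream: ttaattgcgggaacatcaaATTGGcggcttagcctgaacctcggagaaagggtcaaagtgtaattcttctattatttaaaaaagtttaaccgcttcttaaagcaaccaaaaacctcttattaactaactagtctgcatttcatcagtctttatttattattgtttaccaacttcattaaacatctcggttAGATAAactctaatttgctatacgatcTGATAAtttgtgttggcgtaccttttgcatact
With RefSeq starts, 6 of the 10 genes held at least 1 GATA element in these 250 bases, against 39.8% of 5122 protein-coding genes, and 4 of 10 held at least 2, against 10.3%. The 2 of *fip1* and the 2 of *fio1* are the same elements. A CCAAT box was present for 5 of 10, against 35.4%. The windows of *str1*, *str3*, *sib1* and *sib2* held neither motif, and 3 of these 4 genes fell (*str3* and *sib2* the most of the 10). Apart from the intervals between divergent genes, bases further upstream or after the annotated start were not searched. For *str1* the gene starts at 2704657 and its coding part only at 2705523. Annotated starts of these genes differed by up to 218 bp between RefSeq and the deposited table, so a window may be shifted by that much. A match of letters is no measure of binding.

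**Figure D2:**
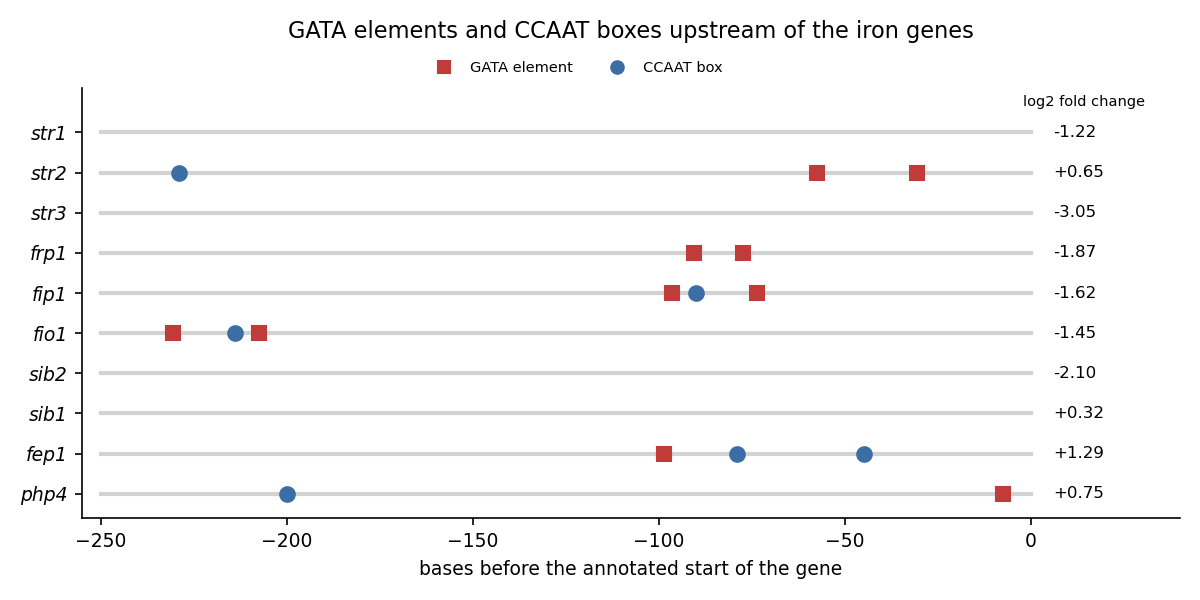
GATA elements (squares) and CCAAT boxes (circles) on either strand in the 250 bases before each annotated start, with the log2 fold change at the right. The 4 genes with 2 GATA elements are *str2*, *frp1*, *fip1* and *fio1*, of which 3 fell and *str2* did not (0.65, or −0.037 with length and GC trends removed). The counts of *str2* could not be assigned to that gene with certainty.

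The ferrichrome synthesis genes *sib1* and *sib2* are also neighbours that point away from each other, 1108 bp apart on chromosome I. *sib2* encodes the ornithine monooxygenase of the first step of ferrichrome synthesis (870793 to 872773, plus strand, 2 exons). Its level was 170, 177 and 163 CPM without thiamine and 44.6, 45.1 and 29.0 CPM in the libraries labelled thiamine. The controls were tight, and replicate 3 was the lowest of the other group. The mean fell 4.30-fold from 170 ± 7.18 to 39.6 ± 9.13 CPM (log2 fold change −2.10, SE 0.16, adjusted p = 7.41e-06, edgeR).

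*sib1* encodes the large peptide synthetase that assembles ferrichrome (854453 to 869684, minus strand, 2 exons). Its level was 30.6, 27.5 and 23.7 CPM without thiamine and 33.1, 32.3 and 36.7 CPM in the libraries labelled thiamine. The groups were separated by less than the spread of the controls. The log2 fold change was 0.32 (SE 0.11, adjusted p = 0.0264, edgeR), and the call was kept under 12 of 17 alternatives. It was 0.020 with upper-quartile factors (adjusted p = 0.868, edgeR) and 0.072 with length and GC trends removed (adjusted p = 0.434, edgeR), and the gene is longer than 99.8% of tested genes. Leaving out control replicate 2 or 3 also ended the call (adjusted p = 0.0725 and 0.102, edgeR). The 1108 bp between the genes held 1 GATA element and no CCAAT box.

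Both regulator genes were higher in the libraries labelled thiamine. *fep1* encodes the GATA-type repressor of iron uptake (chromosome I, 442221 to 445721, plus strand, 1 exon). Its level was 31.6, 34.1 and 36.4 CPM without thiamine and 76.7, 80.8 and 91.8 CPM in the libraries labelled thiamine. The lowest of the second group was more than 2-fold above the highest control. The mean rose 2.44-fold from 34.0 ± 2.43 to 83.1 ± 7.82 CPM (log2 fold change 1.29, SE 0.10, adjusted p = 6.42e-06, edgeR). Annotated genes that were not counted overlap 1238 of the 3501 bp of *fep1*, and their part in this rise was not tested.

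*php4* encodes the iron-responsive subunit of the CCAAT-binding complex (chromosome II, 1915375 to 1916892, minus strand, 1 exon). Its level was 76.0, 67.7 and 90.7 CPM without thiamine and 129, 132 and 134 CPM in the libraries labelled thiamine. The libraries labelled thiamine were within a few CPM of each other and all above the highest control. The mean rose 1.69-fold from 78.1 ± 11.6 to 132 ± 2.26 CPM (log2 fold change 0.75, SE 0.11, adjusted p = 0.000276, edgeR). An annotated gene that was not counted overlaps 1208 of the 1518 bp of *php4*, and its part in this rise was not tested. Among all tested genes, 79.6% changed by less than *fep1* and 56.3% by less than *php4*.

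The regions before *fep1* (chrI:441971-442220, plus strand) and *php4* (chrII:1916893-1917142, minus strand) are shown because both held both kinds of motif and both genes rose. Of the other genes with both kinds, *fip1* and *fio1*, which share their elements, fell. The counts of *str2*, which also held both kinds, did not fall. *fep1* held 1 GATA element, 101 to 96 bases from its start, and 2 CCAAT boxes. *php4* held 1 GATA element, 10 to 5 bases from its start, and 1 CCAAT box. Capitals mark these motifs, which can be read on either strand.
fep1 upstream: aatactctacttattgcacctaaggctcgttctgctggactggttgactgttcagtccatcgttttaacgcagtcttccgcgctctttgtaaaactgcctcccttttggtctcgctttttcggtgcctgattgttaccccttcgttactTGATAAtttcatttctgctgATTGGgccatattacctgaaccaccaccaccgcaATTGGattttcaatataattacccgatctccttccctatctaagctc
php4 upstream: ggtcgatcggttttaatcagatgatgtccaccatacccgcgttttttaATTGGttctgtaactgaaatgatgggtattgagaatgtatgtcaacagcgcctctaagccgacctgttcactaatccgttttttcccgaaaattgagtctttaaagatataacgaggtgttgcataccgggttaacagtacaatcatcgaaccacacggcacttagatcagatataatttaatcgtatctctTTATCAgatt

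The 3 control libraries differed among themselves in a shared way. Replicate 2 without thiamine was the lowest of the controls for *str1*, *str2*, *str3*, *frp1*, *fip1*, *fio1* and *php4*, but the highest for *sib2* and in the middle for *sib1* and *fep1*. Replicate 3 of the libraries labelled thiamine was the lowest of its group for *str1*, *str3* and *sib2* and the highest for *str2*, *sib1*, *fep1*, *fio1* and *php4*. Without control replicate 2 the log2 fold changes were −3.35 for *str3*, −2.03 for *frp1*, −1.86 for *fip1* and −1.62 for *fio1*. With all other libraries kept and control replicate 3 left out, they were −2.79, −1.65, −1.41 and −1.31 in the same order, and all 4 remained called in both cases.

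Levels between genes were compared per kb of transcript. Without thiamine *str1* was highest with 154 ± 22.0 CPM per kb, and its libraries were all above those of the next gene, *sib2* (86.7 ± 3.66 CPM per kb). *sib2* overlapped with *fip1* (80.8 ± 26.3), *fip1* with *php4* (48.8 ± 7.28), and *php4* with *fio1* (36.2 ± 7.94 CPM per kb). *frp1* followed at 17.4 ± 4.55 CPM per kb and did not overlap its neighbours. *fep1* (9.67 ± 0.691) and *str3* (7.95 ± 3.18 CPM per kb) overlapped, and *str2* (3.47 ± 0.207) and *sib1* (1.82 ± 0.229 CPM per kb) were lowest.

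Where thiamine was labelled the order changed. *php4* was first with 82.4 ± 1.41 CPM per kb, and its range overlapped that of *str1* (65.8 ± 26.7 CPM per kb). *fip1* (26.2 ± 0.899), *fep1* (23.6 ± 2.22) and *sib2* (20.2 ± 4.65 CPM per kb) followed, each overlapping the next. *fio1* (13.2 ± 1.33 CPM per kb) was separate from *sib2* above it and from *str2* (5.44 ± 0.662) below it. *str2* overlapped with *frp1* (4.78 ± 0.353), *sib1* had 2.26 ± 0.155 and *str3* was last at 0.959 ± 0.189 CPM per kb. The repressor transcript *fep1* was thus below that of *fio1* without thiamine and above it in the libraries labelled thiamine. The levels of *str2* and *sib1* carry the limits given with those genes. Levels of genes overlapped by genes that were not counted carry the limit given with *str2*.

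Each scaling by library size moved the fold changes of all genes by nearly the same amount. Over all tested genes the median was −0.012 (log2) with TMM factors, −0.31 with upper-quartile factors, 0.57 with library totals and 0.31 with library totals after ribosomal RNA genes were left out. The share of calls that were higher was 49.5%, 34.6%, 82.2% and 68.1% in the same order. The 6 falls and the rises of *fep1* and *php4* kept their direction and their call under all 17 alternatives. With library totals the falls ranged from −0.68 for *str1* to −2.47 for *str3*, while *fep1* rose by 1.89 and *php4* by 1.35 on the log2 scale. Relative to the median of all genes, the log2 fold change of *str3* was −3.04 with TMM factors and −3.04 with library totals, and that of *fep1* was 1.30 and 1.32.

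**Figure D3:**
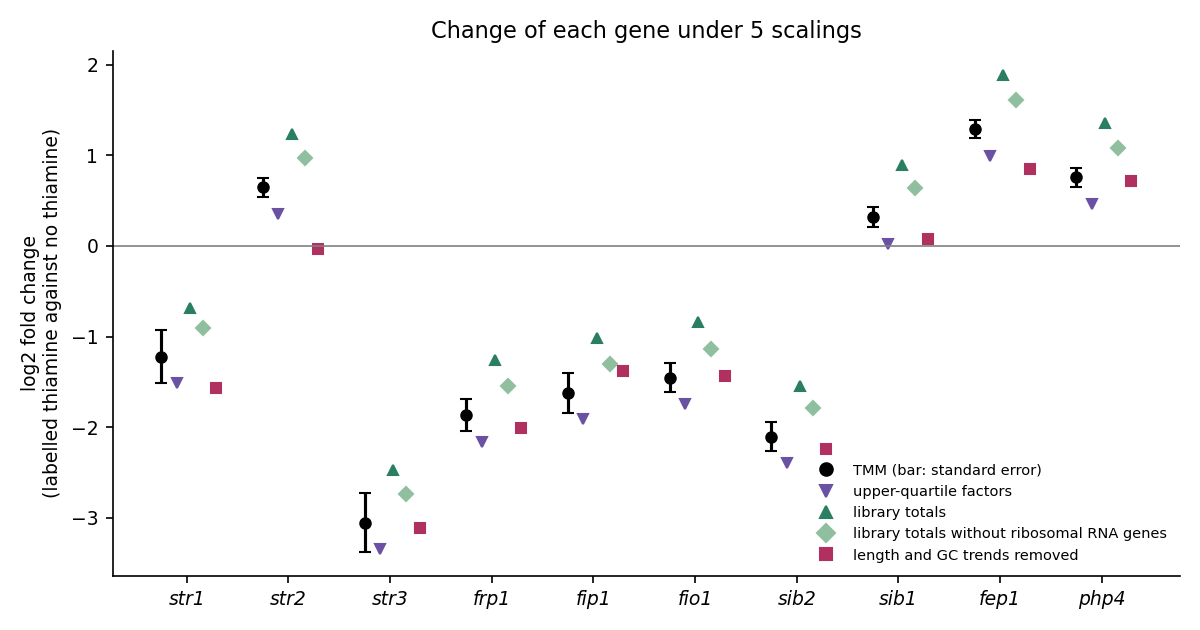
Log2 fold change of each gene, libraries labelled thiamine against no thiamine, under 5 scalings. Black circles are the TMM values with bars for the standard error, and the other symbols are the alternatives, drawn without error bars. The 4 scalings by library size shift all genes together, while removing length and GC trends brings *str2* to −0.037 and *sib1* to 0.072.

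The other 8 tested genes of iron and heme acquisition and transport did not move as a group. Of these, 4 were higher, 3 were lower and 1 (*abc3*) was not called, with a median log2 fold change of 0.030. *shu1*, which encodes a heme-binding protein of the cell surface, had 9, 5 and 12 counts in the controls and 150, 178 and 369 where thiamine was labelled. No library of one group reached the range of the other, and the log2 fold change was 4.26 (SE 0.44, adjusted p = 3.9e-05, edgeR). *shu1* and *str3*, next to each other on chromosome I and 1922 bp apart on the same strand, thus moved in opposite directions. *frp2* rose from 3.63 ± 0.241 to 17.2 ± 2.19 CPM (log2 fold change 2.25, SE 0.13, adjusted p = 1.85e-06, edgeR). *fet4*, a low-affinity metal transporter of the plasma membrane, fell from 28.9 ± 2.88 to 5.97 ± 0.802 CPM (log2 fold change −2.28, SE 0.13, adjusted p = 1.74e-06, edgeR). *pcl1*, a vacuolar iron transporter, had a log2 fold change of −0.59 (adjusted p = 0.0258, edgeR), which was −0.030 with library totals (adjusted p = 0.918) and no longer called without control replicate 2 or 3. Without control replicate 3 the number of lower genes in this list was 1.

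Among 7 partners of the regulators, 4 were higher, 1 was lower and 2, the corepressors *tup11* and *tup12*, were not called. With upper-quartile factors 2 were higher and 2 were lower. The other subunits of the CCAAT-binding complex rose with *php4*, and their log2 fold changes were 0.86 for *php3*, 0.55 for *php2* and 0.51 for *php5*. With upper-quartile factors *php2* was at 0.25 (adjusted p = 0.0823, edgeR), *php5* at 0.21 (adjusted p = 0.0412) and *grx4* at 0.15 (adjusted p = 0.159), so that *php2* and *grx4* lost their calls. *grx4*, the glutaredoxin that conveys iron status to Fep1 and Php4, had a log2 fold change of 0.45 (SE 0.10, adjusted p = 0.00293, edgeR). *fra2*, a BolA-type protein that acts with Grx4, fell by 1.38 on the log2 scale (SE 0.21, adjusted p = 0.000361, edgeR) from 3.21 ± 0.109 to 1.24 ± 0.270 CPM.

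Genes that use iron moved in both directions. Of 13 tested genes of iron-sulfur cluster assembly, 6 were higher and 4 were lower, with a median log2 fold change of −0.038. With library totals none of the 13 was called lower. The largest rises were those of *nar1* of the cytosolic assembly pathway (log2 fold change 2.04, SE 0.22, adjusted p = 5.58e-05, edgeR) and of *nfs1*, the cysteine desulfurase (1.46, SE 0.13, adjusted p = 1.65e-05, edgeR). The largest falls were −0.84 for *etp1* and −0.54 for *jac1*, neither of which was called with library totals, where *jac1* was at 0.029. Of 14 genes for iron-sulfur enzymes, 1 was higher, 5 were lower and 8 were not called. With library totals 6 were higher and 1 was lower, and without replicate 3 of the libraries labelled thiamine 3 were higher. *ilv3*, dihydroxy-acid dehydratase of branched-chain amino acid synthesis, fell by 1.74 and *bio2*, biotin synthase, by 1.01 on the log2 scale, and with library totals *ilv3* stayed called and *bio2* did not. The rise of the aconitase gene *aco1* (0.51) was lost under 5 of 17 alternatives, among them leaving out control replicate 1 or 3 or replicate 1 or 2 of the libraries labelled thiamine.

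Of 9 tested genes of heme synthesis and heme proteins, 7 were lower and 2 were higher, and the median log2 fold change was −1.16. Among all tested genes 35.3% were lower and 34.5% were higher. With library totals 5 genes of this list were lower and 2 were higher. *hem13*, coproporphyrinogen oxidase, fell from 262 ± 32.7 to 68.5 ± 20.3 CPM (log2 fold change −1.93, SE 0.22, adjusted p = 6.3e-05, edgeR). *hem1*, the aminolevulinate synthase of the first step, fell from 546 ± 59.4 to 153 ± 3.85 CPM (log2 fold change −1.83, SE 0.11, adjusted p = 2.28e-06, edgeR). *cyc1*, cytochrome c, rose by 0.98 on the log2 scale (SE 0.13, adjusted p = 0.000158, edgeR) and *hem3*, porphobilinogen deaminase, by 0.72 (SE 0.076, adjusted p = 4.46e-05, edgeR). These 4 kept their direction and their call under all 17 alternatives. Over the 51 tested genes of these lists 17 were higher, 20 were lower and 14 were not called, so that 72.5% were called, against 69.8% of all tested genes.

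**Figure D4:**
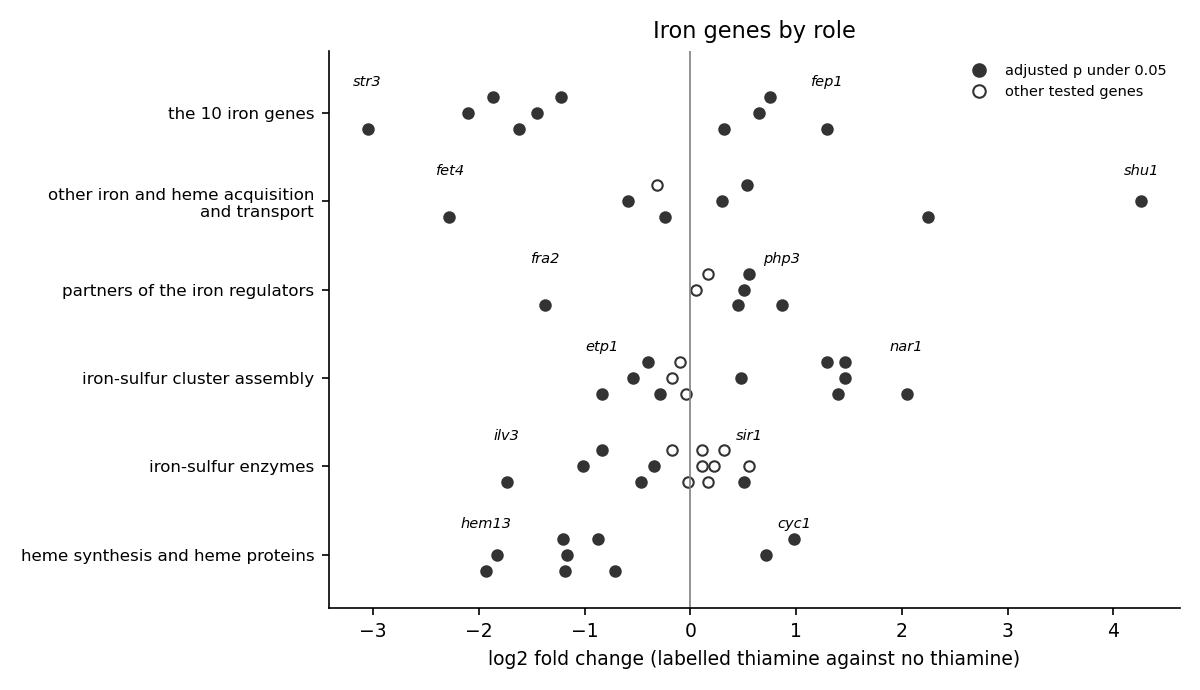
Log2 fold change (TMM) of the 10 iron genes and of the tested genes of 5 lists of iron-related function. Each point is a gene, filled where the adjusted p was under 0.05, and the lowest and the highest gene of each list are named. Values run from −3.05 (*str3*) to 4.26 (*shu1*), and the heme list has 7 of 9 genes to the left of 0.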

How the data were processed

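RNA-Seq of 6 *nup211-so* cultures (3 without and 3 with thiamine) was used. The authors deposited whole-number counts of reads per gene for 6291 genes, without normalization. The submitters' processing notes name STAR and DESeq2; versions, genome build and strand setting of the counting are not given in the sources used here. The library kit was stranded and selects polyadenylated RNA. Deposited transcript lengths and positions (bp) were used for levels per kb. The authors also deposited columns of their own comparison (mean level, log2 fold change, its error, test statistic, p-values), which were not used.

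Counts were tested with edgeR 4.0.16 (R 4.3.3; glmQLFit with robust dispersion, glmQLFTest, TMM, filterByExpr), which kept 5434 genes. Benjamini-Hochberg adjustment ran over all of these, with calls at an adjusted p under 0.05. Each SE was derived from the test, as the absolute log2 fold change divided by the square root of the F statistic. Alternatives were DESeq2 1.42.0, other scalings, other filters, a replicate block, loess removal (span 0.5) of length and GC trends, and each library left out. Positions and sequences are those of RefSeq ASM294v3, which had 6239 of the counted genes. Simulated counts with 200 changed genes of 5434, drawn from those above a mean of 2 CPM, were tested with the same edgeR fit. It recovered 107 of 112 genes changed by 1 and 88 of 88 changed by 2 on the log2 scale. There were 12 false calls among 5187 unchanged genes. In the data themselves 69.8% of tested genes were called. The simulation thus cannot test the scaling where most genes change.

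The 10 genes and the lists were chosen with earlier results of these data known. All 10 genes are named. From each list the 2 called genes that rose most and the 2 that fell most are named, along with genes beside a member and, for *str3* and *fep1*, the 3 genes closest in pattern; *abc3*, *tup11*, *tup12*, *php5* and *grx4* were named after their values were seen. Of the listed names, *hmx1*, *cfd1*, *met18* and *ssq1* matched no row, *cia1* and *ccp1* were left out because these symbols name histone chaperones in this yeast, and *hem14* did not pass the filter. With *cia1* and *ccp1* the lists had 5 lower genes of 14 and 7 lower of 10.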

Additional observations from a re-analysis of the deposited data

How the results depend on the processing

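Of 170 values of the 10 genes under 17 alternatives each, 163 kept their direction and call. The exceptions were *str2* and *sib1*. *str2* was at −0.0369 with length and GC trends removed and at −0.0383 with the replicate block added. *sib1* was at 0.0205 with upper-quartile factors, at 0.0724 with length and GC trends removed and at 0.0740 with the block added, and between 0.22 and 0.40 with each library left out. The number of higher genes among the 10 was then 2 with length and GC trends removed (also with the block). Leaving out each library gave 3 to 4 higher and 6 lower genes. With library totals 26 listed genes were higher and 8 lower, and 588 of all genes were lower. Library totals without ribosomal RNA genes, added after the data were seen, gave 13 lower listed genes and 1190 lower genes in all. Leaving out each library gave 16 to 19 higher and 16 to 20 lower listed genes, and 1731 to 1951 higher and 1709 to 2043 lower genes in all. Length and GC content were removed together, and the cause of these shifts was not tested. The deviations of same-numbered libraries from their group means had correlations of −0.0049, 0.086 and −0.028, so the numbers were not taken as pairs. The fit with the replicate block called 1845 genes higher and 1874 lower, and the same 10 iron genes in the same directions. Low counts limit the precision of *shu1* in the controls and of *fra2* and *str3* in the libraries labelled thiamine.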

Other observations

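Genes beside the 10 iron genes were examined by position. *frp1* lies between the hexose transporter gene *ght4* (786 bp away, log2 fold change −2.45, SE 0.21, adjusted p = 1.24e-05, edgeR) and *pcl1* (1141 bp away, −0.59). *mrpl39*, 2905 bp upstream of *str1*, had a log2 fold change of −0.61 (SE 0.16, adjusted p = 0.00708, edgeR). *vps901*, 307 bp downstream of *str1*, had a log2 fold change of 1.09 (SE 0.075, adjusted p = 4.12e-06, edgeR) where *str1* had −1.22. Both tested neighbours of *str2* were higher, with log2 fold changes of 0.50 for *epe1* (170 bp away) and 0.60 for *spt3* (938 bp away). *rpb2*, 67 bp from the 3′ end of *sib1*, was at 0.86 (SE 0.11, adjusted p = 0.000137, edgeR). Of the genes beside *fep1*, *mre11* had a log2 fold change of 0.0045 (adjusted p = 0.969, edgeR) and *lsd2* of 0.54.

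The genes outside the lists whose levels over the 6 libraries were most like those of *str3* were *mug14*, SPAC186.04c and SPNCRNA.1156. Likeness was the Euclidean distance between log2 CPM values centred on the mean without thiamine, and these distances were 0.54, 0.60 and 0.74. Their log2 fold changes were −3.21, −2.86 and −3.13. Those most like *fep1* were *mug178*, *fcf2* and *but2*, at distances of 0.12, 0.12 and 0.14 and with log2 fold changes of 1.28, 1.24 and 1.21. These are descriptions over 6 libraries that include the contrast itself.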
